A study of Mus musculus with 20 samples.

Results

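The genes described here build the entry gate of the secretory pathway: the machinery that brings new proteins to the endoplasmic reticulum (ER), moves them through or into its membrane, removes their signal peptides and attaches and trims N-linked glycans. They were chosen as a list of 36 gene symbols from knowledge of the pathway, with earlier results of these data known. All 36 of 36 were found, each under 1 Ensembl identifier, among the 46603 identifiers of a mouse RNA-seq count table. All 36 passed the filter on low counts in each of the 3 fits (12540 genes in melanoma, 13432 in T cells, 14824 in all libraries). By role they are 6 signal recognition genes (Srp9, Srp14, Srp19, Srp68, Srp72 and Srprb), 8 genes of the translocon and its partners (Sec61a1, Sec61a2, Sec61b, Sec61g, Sec62, Sec63, Tram1 and Tram2) and 4 genes of the translocon-associated protein complex TRAP (Ssr1, Ssr2, Ssr3 and Ssr4). A further 5 encode signal peptidase subunits (Spcs1, Spcs2, Spcs3, Sec11a and Sec11c), 10 encode oligosaccharyltransferase subunits (Rpn1, Rpn2, Ddost, Dad1, Stt3a, Stt3b, Tusc3, Magt1, Ostc and Krtcap2) and 3 encode the glucosidases that trim the new glycan (Mogs, Ganab and Prkcsh).

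The study holds 20 libraries of total RNA, 2 for each of 10 groups. Of these, 8 came from B16F10, a mouse melanoma line, carrying a Ccdc101 knockout (KO) or the control genotype, and were treated with dimethyl sulfoxide as vehicle or with TG. TG is thapsigargin, which blocks the SERCA pumps that refill the ER with calcium, and was used at 50 ng/mL for 8 hours. The other 12 came from cultured OT-I/Cas9 CD8 T cells, that is T cells with a transgenic antigen receptor and the Cas9 nuclease, kept in puromycin and the cytokines IL-2, IL-7 and IL-15 in every group, so that resting here means cytokine-fed cells without receptor stimulation. Control T cells were activated with plate-bound anti-CD3 antibody (2.5 µg/mL, 24 hours) or left resting, with TG or vehicle in both states. T cells with an Atp2a2 KO were given vehicle and labelled activated or resting. The melanoma cells were also kept in puromycin. The labels do not say that the libraries of a group came from separate cultures, so p-values measure the spread between libraries, which may be technical, and they do not say that either KO line is 1 clone or that the target protein was lost.

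A protein with a signal sequence is recognised on the ribosome by the signal recognition particle, docks at its receptor and is threaded into the Sec61 channel, where signal peptidase and the oligosaccharyltransferase act on it as it emerges. Calcium depletion of the ER by TG disturbs protein folding there and switches on the unfolded protein response, whose transcription factors XBP1 and ATF6 are known activators of many genes of this machinery. In T cells the same machinery carries antigen receptors, cytokines and cytotoxic proteins, and in melanoma cells it carries the pigment enzymes.

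Promoter windows, from 250 bases before to 50 bases after the RefSeq gene start on GRCm38.p6, were held for 27 of the 36 genes and were searched on both strands for 4 motifs of the ER stress response. The ER stress response element (ERSE), CCAAT and CCACG with 9 bases between them, was found for 0 of the 27 genes and for 0.137% of all 27025 genes with a window. ERSE-II, ATTGG and CCACG with 1 base between them, was found for 1, Krtcap2, at the later of its listed starts, and for 0.0444% of all. The unfolded protein response element TGACGTGG was found for 0 of the 27 (0.714% of all), and the amino acid response motif TGATG, 1 base, AAT, for 0 (1.08% of all). ERSE with 1 mismatch in its CCACG part, a search added after the data were examined, was found for Rpn2 and Sec61g and for 1.02% of all genes. The shares differed among the 9241 genes with a window that were tested in melanoma. There they were 0.195% for ERSE, 0.0866% for ERSE-II and 1.59% for ERSE with 1 mismatch. The unfolded protein response element was at 1.04% and the amino acid response motif at 0.519%. A motif with these letters is a description of the sequence and not a binding site, and Ssr2, Spcs3, Ostc, Tram1, Srp68, Srp19, Sec61a1, Tusc3 and Sec11c were without a window. The 3 windows that held a motif are printed to 30 bases after the start, 5′ to 3′ on the gene's strand, with the motif in capitals: Krtcap2 at chr3:89246223-89246502 (plus strand), Rpn2 at chr2:157278848-157279127 (plus strand) and Sec61g at chr11:16508455-16508734 (minus strand).
Krtcap2: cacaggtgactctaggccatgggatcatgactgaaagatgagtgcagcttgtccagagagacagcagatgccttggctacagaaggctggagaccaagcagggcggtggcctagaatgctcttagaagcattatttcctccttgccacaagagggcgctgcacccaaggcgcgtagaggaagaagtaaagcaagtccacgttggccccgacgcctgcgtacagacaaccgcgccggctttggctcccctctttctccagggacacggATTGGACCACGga
Rpn2: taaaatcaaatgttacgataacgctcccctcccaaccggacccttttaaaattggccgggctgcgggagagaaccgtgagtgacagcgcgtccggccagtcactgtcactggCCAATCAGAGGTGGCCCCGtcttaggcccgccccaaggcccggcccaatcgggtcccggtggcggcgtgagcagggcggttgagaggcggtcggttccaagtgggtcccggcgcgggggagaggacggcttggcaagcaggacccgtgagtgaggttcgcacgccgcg
Sec61g: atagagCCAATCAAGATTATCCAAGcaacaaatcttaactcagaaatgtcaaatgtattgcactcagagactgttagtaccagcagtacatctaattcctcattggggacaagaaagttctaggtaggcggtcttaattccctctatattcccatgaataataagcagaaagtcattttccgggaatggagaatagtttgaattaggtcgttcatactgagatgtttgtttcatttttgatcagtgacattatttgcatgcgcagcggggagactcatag
The Krtcap2 motif covered positions 18 to 28, counted from 1 at the start, whereas those of Rpn2 and Sec61g began 138 and 244 bases before it.

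Depth ran from 9985311 to 17462770 counts per library. Sgf29, the current symbol of Ccdc101, had 19.6 and 18.7 CPM (counts scaled to library size) in KO melanoma with vehicle, against 29.6 and 28.2 in the control (log2 difference -0.59 ± 0.085, adjusted p = 6.6e-07), and Atp2a2 had 434 and 436 CPM in activated KO T cells, against 664 and 687 in activated control cells (-0.63 ± 0.034, adjusted p = 9.2e-23). The 2 libraries labelled resting Atp2a2 KO went against the resting label: Ifng, the interferon made by stimulated T cells, was at 7545 and 7599.9 CPM there, against 9.59 and 10.5 CPM in resting control cells, and at 4843 and 4994 CPM in activated control cells. They are called the libraries labelled resting Atp2a2 KO throughout, and every result with T cells for which they are not a compared group was also fitted without them. Melanocyte markers summed to 10322 to 16152 CPM in the melanoma libraries and to at most 7.81 CPM in T cells, and 8 T cell markers summed to 3810 to 9165 CPM in T cells and to at most 7.70 CPM in melanoma. Among T cells the melanocyte markers summed to 5.21 to 7.81 CPM in control libraries and to 0.312 to 1.34 CPM in Atp2a2 KO libraries. The comparisons of Atp2a2 KO with control cells share this difference, and its cause was not tested. Of the plasma cell markers, a list of 5 for a cell type known for abundant ER machinery, Jchain, Igkc and Mzb1 were below 1 CPM in every library, while Sdc1 ran from 12.7 to 78.7 CPM in melanoma and Ighm from 8.96 to 151 CPM in T cells. Reads of genes that share sequence may have been dropped or counted for another gene. The counting settings are not given in the sources used here. Of all 50-base stretches of Srprb 19.9% also occur in another gene's transcripts, as do 17.4% for Srp9 and 12.5% for Krtcap2. Adjusted p-values come from the quasi-likelihood test of edgeR, corrected by Benjamini-Hochberg over every tested gene. Genes with an adjusted p under 0.05 are the called ones, and errors after ± are SE unless named SD.

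The 36 genes took 1.45% ± 0.0029 of all counts in Ccdc101 KO melanoma with TG, against 0.776% ± 0.0087 with vehicle (mean ± SD, n = 2), and 1.43% ± 0.0054 in control melanoma with TG, against 0.816% ± 0.0020 with vehicle. In control T cells they took 1.00% ± 0.0046 in activated cells with TG, against 0.745% ± 0.0084 with vehicle, and 0.832% ± 0.0086 in resting cells with TG, against 0.567% ± 0.0049 with vehicle. In each of the 4 pairs both TG libraries lay above both vehicle libraries. In bulk samples such as these, fewer cells of a type and less RNA per cell cannot be told apart.

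**Figure D1:**
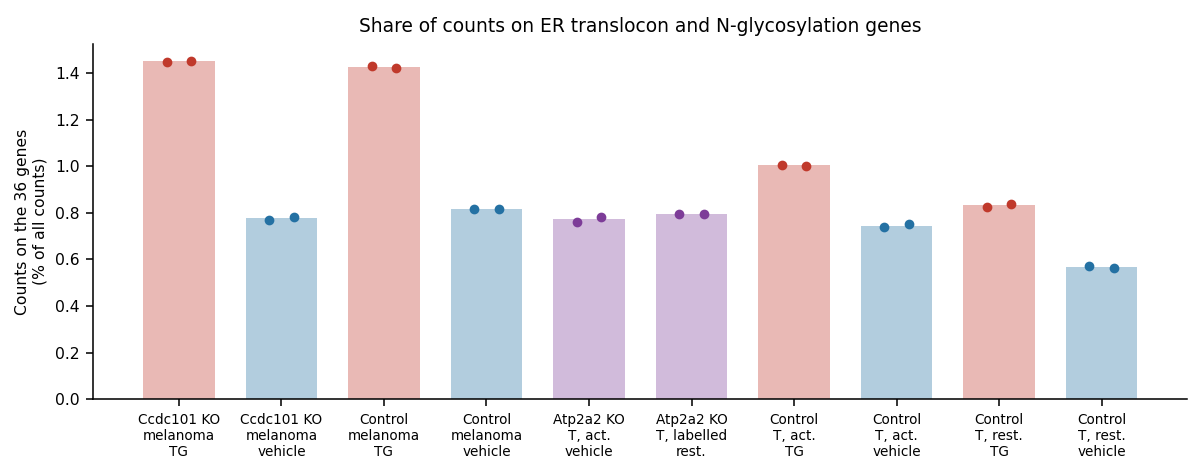
Percent of all counts that fell on the 36 genes (vertical axis, starting at 0) in each library (points) with the group mean (bars), for 10 groups; red is TG, blue is vehicle in control or Ccdc101 KO cells and purple is Atp2a2 KO with vehicle. The melanoma TG groups are highest, at 1.45% in the KO and 1.43% in the control, and resting control T cells with vehicle are lowest at 0.567%.

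What TG did in melanoma cells was the opening comparison. In Ccdc101 KO melanoma 32 of the 36 genes rose with TG, 3 fell and 1 was not called, and their median log2 change was 0.93; of all 12540 genes tested, 34.1% were higher and 36.3% lower. In control melanoma the counts were the same, 32 higher, 3 lower and 1 not called, with a median of 0.76 (35.7% higher and 36.1% lower among all genes). The 32 genes that rose were the same in both genotypes, and so were Sec61a2, Tram2 and Tusc3, which fell, and Mogs, which was not called. None of the 35 calls in either genotype ended under the alternatives run, among them leaving out each library, though Sec61g was not tested under the filter of 5 CPM in 2 libraries. Each of the 3 that fell is a paralog of a gene that rose. The TG and vehicle libraries did not overlap for 36 of the 36 genes in control melanoma and for 35 in KO melanoma. The 36 include Mogs, so a lack of overlap between 2 and 2 libraries does not mark a called change. The share of all genes without overlap was not counted. The ER chaperone Hspa5 and the transcription factor Xbp1, used as markers of ER stress, rose by 3.52 ± 0.022 and 1.92 ± 0.039 on the log2 scale in KO melanoma and by 3.34 ± 0.022 and 1.78 ± 0.038 in control melanoma. Markers of cell types moved with TG too. The 7 melanocyte markers summed to 10322 to 10345 CPM with TG, against 12949 to 13282 CPM with vehicle in KO melanoma, where 7 fell, and to 13537 to 13544 CPM with TG, against 15934 to 16152 CPM with vehicle in the control, where 6 fell. The 5 plasma cell markers summed to 12.998 to 13.2 CPM with TG, against 66.8 to 70.1 CPM with vehicle in the KO, and to 14.2 CPM with TG, against 77.9 to 78.8 CPM with vehicle in the control. Sdc1, the 1 plasma cell marker that could be tested, fell in both, and 2 to 3 of the 5 markers were at 0 in each group. The 4 fibroblast markers summed to 15.7 to 16.7 CPM with TG, against 11.9 to 12.5 CPM with vehicle in the KO, and to 19.8 to 24.9 CPM with TG, against 13.95 to 15.5 CPM with vehicle in the control. The part of these markers in the results was not tested.

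**Figure D2:**
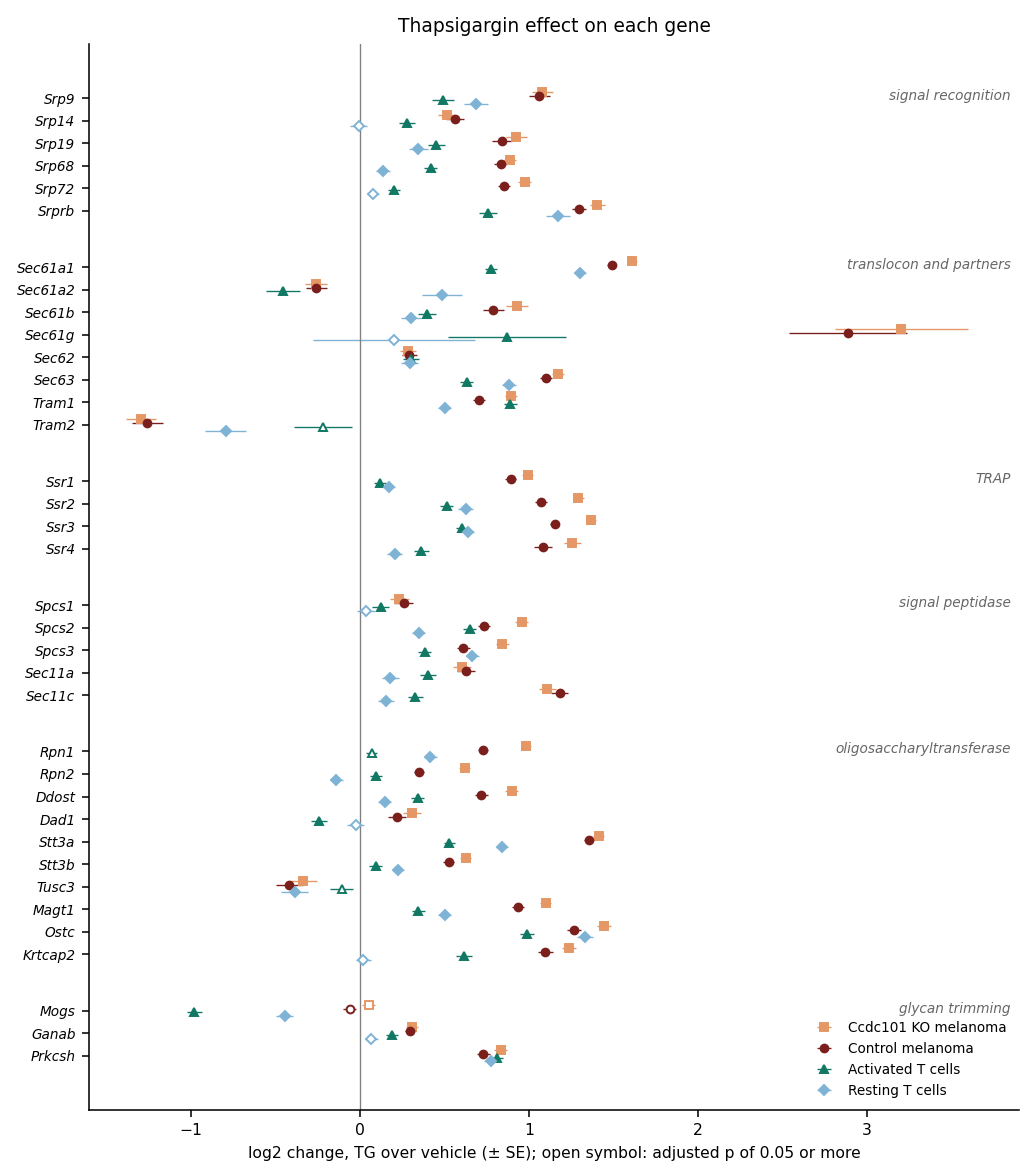
Log2 change by TG over vehicle (horizontal axis, points with SE bars) for each of the 36 genes, grouped by role, in Ccdc101 KO melanoma (orange squares), control melanoma (dark circles), activated T cells (green triangles) and resting T cells (blue diamonds); open symbols are changes that were not called. In melanoma 32 genes lie right of 0 in both genotypes and Tram2, Tusc3 and Sec61a2 lie left of it, while in T cells most points lie nearer to 0.

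All 6 signal recognition genes rose in both melanoma genotypes. Srprb, the subunit that anchors the signal recognition particle receptor in the ER membrane, had 223 and 228 CPM in KO melanoma with TG, against 84.3 and 86.1 CPM with vehicle (log2 change 1.41 ± 0.043, adjusted p = 6.9e-29). In control melanoma Srprb had 226 and 232 CPM with TG, against 93.2 and 93.5 CPM with vehicle (1.30 ± 0.042). The TG and vehicle libraries were apart in both genotypes, and Srprb changed most of the 6. Srp9, which with Srp14 forms the part of the particle that slows translation, had 74.6 and 79.6 CPM with TG, against 38.4 and 34.5 CPM with vehicle in KO melanoma (1.08 ± 0.064, adjusted p = 7.6e-19). Srp9 had 80.2 and 75.2 CPM in the control with TG, against 37.0 and 37.3 CPM with vehicle (1.06 ± 0.063). The libraries of Srp9 with and without TG did not overlap either. Srp72, which with Srp68 forms the large protein pair of the particle, had 448 and 445 CPM with TG, against 221 and 233 CPM with vehicle in the KO (0.98 ± 0.038). Srp72 had 451 and 439 CPM in the control with TG, against 254 and 237 CPM with vehicle (0.85 ± 0.037). The log2 changes of Srp68 (0.89 ± 0.038) and of Srp19 (0.93 ± 0.061), the subunit that helps assemble the particle on its RNA, were close to that of Srp72 in KO melanoma, and Srp14 changed least (0.52 ± 0.055 in KO and 0.56 ± 0.054 in control melanoma).

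Of the 8 translocon genes 6 rose and 2 fell. Sec61a1 (chr6:88503579-88518905 on GRCm38, minus strand) encodes the pore of the channel and had 1852 and 1847 CPM in KO melanoma with TG, against 597 and 612 CPM with vehicle (1.61 ± 0.028, adjusted p = 4.5e-38). In control melanoma it had 1969 and 2001 CPM with TG, against 709 and 703 CPM with vehicle (1.49 ± 0.027). Its paralog Sec61a2 went the other way, with 41.0 and 41.2 CPM with TG, against 48.6 and 49.8 CPM with vehicle in KO melanoma (-0.26 ± 0.065, adjusted p = 5.4e-04). Sec61a2 had 42.7 and 43.6 CPM in the control with TG, against 51.3 and 51.8 CPM with vehicle (-0.26 ± 0.064). The pore paralogs thus moved in opposite directions in both genotypes. Sec61g, a small subunit that clamps the pore, gave the largest log2 change of the 36 (3.20 ± 0.39 in the KO and 2.89 ± 0.35 in the control) but from few reads: 3.11 and 3.84 CPM with TG, against 0.391 and 0.350 CPM with vehicle in the KO, and 4.17 and 3.42 against 0.669 and 0.300 CPM in the control. Its counts ran from 4 to 52 over the 20 libraries, the lowest of all 36 genes, and 14.8% of its 50-base stretches also occur in transcripts of 5 other genes, so its level is uncertain. The small subunit Sec61b rose by 0.93 ± 0.066 and 0.79 ± 0.062 in KO and control melanoma, with 17.4% of its stretches shared with 3 other genes.

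Sec63, the membrane protein that recruits the chaperone BiP to the channel, rose by 1.17 ± 0.036 in KO and 1.10 ± 0.036 in control melanoma, and its partner Sec62 by 0.29 ± 0.046 in the KO and 0.29 ± 0.046 in the control. Tram1, which helps signal sequences and membrane segments into the lipid, had 448 and 450.1 CPM in KO melanoma with TG, against 242 and 241 CPM with vehicle (0.89 ± 0.036). Tram1 had 442 and 419.7 CPM in the control with TG, against 260.3 and 268 CPM with vehicle (0.71 ± 0.035). Tram2, its paralog, known for a role in collagen synthesis, fell most of the 36: it had 15.01 and 19.9 CPM with TG, against 43.3 and 43.3 CPM with vehicle in the KO (-1.30 ± 0.089, adjusted p = 1.8e-16). In control melanoma Tram2 had 16.6 and 16.2 CPM with TG, against 38.9 and 39.3 CPM with vehicle (-1.25 ± 0.093). The libraries of the 2 treatments did not overlap for either Tram gene.

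All 4 TRAP genes, which encode a complex beside the channel that helps some signal sequences to enter, rose in both genotypes. Ssr3, the gamma subunit, had 1717 and 1729 CPM in KO melanoma with TG, against 668 and 666 CPM with vehicle (1.37 ± 0.028, adjusted p = 2.0e-35). Ssr3 had 1607 and 1595 CPM in the control with TG, against 731 and 708 CPM with vehicle (1.15 ± 0.028). Ssr3 changed most of the 4 in both genotypes. Ssr4, the delta subunit, had 140.3 and 147 CPM with TG, against 61.4 and 59.1 CPM with vehicle in the KO (1.26 ± 0.050). Ssr4 had 118 and 119 CPM in the control with TG, against 55.0 and 56.6 CPM with vehicle (1.08 ± 0.052). The TG libraries lay above the vehicle libraries for each TRAP gene. Ssr2, the beta subunit, had 616 and 617 CPM with TG, against 247 and 256 CPM with vehicle in the KO (1.29 ± 0.034). Ssr2 had 609.9 and 592 CPM in the control with TG, against 285 and 287 CPM with vehicle (1.07 ± 0.033). The alpha subunit Ssr1 rose by 0.99 ± 0.031 in the KO and 0.89 ± 0.031 in the control, the smallest change of the 4 in each genotype.

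All 5 signal peptidase genes also rose. Sec11c, which encodes one of the alternative catalytic subunits, had 122 and 126 CPM in KO melanoma with TG, against 58.3 and 56.8 CPM with vehicle (1.11 ± 0.051, adjusted p = 1.1e-22). Sec11c had 135 and 133 CPM in the control with TG, against 58.7 and 59.3 CPM with vehicle (1.18 ± 0.050). Sec11c changed most of the 5. The other catalytic subunit, Sec11a, had 99.7 and 103 CPM with TG, against 66.4 and 66.9 CPM with vehicle in the KO (0.61 ± 0.054). Sec11a had 100.2 and 94.6 CPM in the control with TG, against 65.5 and 60.2 CPM with vehicle (0.63 ± 0.054). The change of Sec11c was thus the larger of the pair in both genotypes. Of the accessory subunits, Spcs2 had 353 and 364 CPM with TG, against 185 and 184 CPM with vehicle in the KO (0.96 ± 0.037). Spcs2 had 331 and 336 CPM in the control with TG, against 202 and 199 CPM with vehicle (0.74 ± 0.037). Spcs3, needed for catalysis, had 381 and 389 CPM in the KO with TG, against 213 and 217 CPM with vehicle (0.84 ± 0.037). It rose by 0.61 ± 0.037 in the control, and Spcs1 changed least (0.24 ± 0.055 in the KO and 0.26 ± 0.055 in the control).

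Of the 10 oligosaccharyltransferase genes 9 rose and Tusc3 fell. The enzyme exists as an A form, built on the catalytic subunit STT3A and held at the channel by OSTC and KRTCAP2, and a B form, built on STT3B with MAGT1 or TUSC3, which acts on sites that the A form missed. Genes for the A form changed most: Stt3a (chr9:36729344-36767679, minus strand) had 1061 and 1076 CPM in KO melanoma with TG, against 393 and 409.7 CPM with vehicle (1.41 ± 0.031, adjusted p = 1.9e-34). Stt3a had 1109.5 and 1113 CPM in the control with TG, against 430.2 and 437 CPM with vehicle (1.36 ± 0.030). The TG libraries of Stt3a all lay above those with vehicle. Ostc had 328 and 338 CPM with TG, against 125 and 119.9 CPM with vehicle in the KO (1.45 ± 0.041). Ostc had 293 and 288 CPM in the control with TG, against 125 and 116 CPM with vehicle (1.27 ± 0.041). OSTC is a small subunit of the A form. Krtcap2, whose window holds the ERSE-II letters shown above, had 210.3 and 211 CPM with TG, against 88.0 and 90.6 CPM with vehicle in the KO (1.24 ± 0.044). Krtcap2 had 206 and 199 CPM in the control with TG, against 95.7 and 93.5 CPM with vehicle (1.10 ± 0.043). Each of these A form genes more than doubled in both genotypes. Among the B form genes, Stt3b had 562 and 558 CPM with TG, against 362 and 363 CPM with vehicle in the KO (0.63 ± 0.032). Stt3b had 588 and 583 CPM in the control with TG, against 404 and 409 CPM with vehicle (0.53 ± 0.032).

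Magt1, the oxidoreductase that lets the B form reach sites near disulfide bonds, had 702 and 734 CPM in KO melanoma with TG, against 338 and 333 CPM with vehicle (1.10 ± 0.034). Magt1 had 653 and 656 CPM in the control with TG, against 351 and 333 CPM with vehicle (0.94 ± 0.034). Magt1 rose in both genotypes without overlap. Its paralog Tusc3 had 26.2 and 28.6 CPM with TG, against 35.3 and 34.0 CPM with vehicle in the KO (-0.33 ± 0.079, adjusted p = 2.9e-04). Tusc3 had 26.2 and 27.8 CPM in the control with TG, against 34.9 and 37.3 CPM with vehicle (-0.42 ± 0.080). The subunits that both forms share rose less than Stt3a: Rpn1, which delivers substrates, by 0.99 ± 0.029 in the KO and 0.73 ± 0.029 in the control, and Ddost by 0.90 ± 0.038 in the KO and 0.72 ± 0.038 in the control. Rpn2 rose by 0.62 ± 0.032 in the KO and 0.35 ± 0.032 in the control, and Dad1, first known as a defender against apoptotic death, by 0.31 ± 0.054 in the KO and 0.22 ± 0.054 in the control.

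The 3 glycan trimming genes act in order, Mogs encoding glucosidase I and Ganab and Prkcsh the alpha and beta subunits of glucosidase II. Prkcsh had 316 and 307 CPM in KO melanoma with TG, against 170.4 and 179 CPM with vehicle (0.83 ± 0.039, adjusted p = 1.5e-22). Prkcsh had 302 and 305 CPM in the control with TG, against 182 and 184 CPM with vehicle (0.73 ± 0.038). Prkcsh rose most of the 3. Ganab had 426 and 421 CPM with TG, against 336 and 347 CPM with vehicle in the KO (0.31 ± 0.034). Ganab had 409 and 413 CPM in the control with TG, against 331 and 336 CPM with vehicle (0.30 ± 0.034). Both subunits of glucosidase II therefore rose, with unequal log2 changes. Mogs had 241 and 252 CPM with TG, against 233 and 243 CPM with vehicle in the KO (0.05 ± 0.038, adjusted p = 0.22). Mogs had 250.00 and 256 CPM in the control with TG, against 264 and 263 CPM with vehicle (-0.06 ± 0.038, adjusted p = 0.16).

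Whether the Ccdc101 KO moved these genes was asked with and without TG. With vehicle 0 of the 36 genes were higher in the KO and 16 were lower, with a median log2 difference of -0.08 (12.4% higher and 13.3% lower among all genes tested). The 6 largest of these differences, all small, were in Sec61b (-0.32 ± 0.069), Rpn1 (-0.29 ± 0.029), Sec61a1 (-0.22 ± 0.028), Ssr2 (-0.18 ± 0.035), Stt3b (-0.16 ± 0.032) and Mogs (-0.15 ± 0.038). With DESeq2 5 of the 16 calls ended, and some also ended when single libraries were left out. Rpn1 had 693 and 716 CPM in KO melanoma with vehicle, against 851 and 875 CPM in the control, and Sec61b had 42.7 and 41.3 CPM in the KO, against 48.1 and 57.7 CPM in the control. With TG 7 genes were higher in the KO and 2 lower, with a median of 0.02 (16.6% higher and 15% lower among all genes). Ssr4 was the highest, with 140.3 and 147 CPM in the KO with TG, against 118 and 119 CPM in the control with TG (0.28 ± 0.046, adjusted p = 5.3e-06). The other higher genes were Spcs3, Ostc, Rpn2, Magt1, Ssr3 and Spcs2, with differences of 0.10 to 0.20, and Sec61b (-0.18 ± 0.059) and Sec61a1 (-0.10 ± 0.027) were lower. The count of 2 lower genes was 1 without replicate 1 of control melanoma with TG, and 0 without its replicate 2 or without either replicate of KO melanoma with TG. The call of Magt1 ended without replicate 2 of KO melanoma with TG (log2 0.11) and that of Spcs2 without replicate 1 of control melanoma with TG or replicate 2 of KO melanoma with TG (log2 0.09 to 0.10). The 7 melanocyte markers were all lower in the KO, with vehicle as with TG, and their part in these differences was not tested.

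The effect of TG itself was larger in KO than in control melanoma for 11 of the 36 genes and smaller for 0, by an interaction test (7.16% and 5.95% of all genes tested, 13.1% in either direction; median difference 0.11). These were Rpn2 (0.27 ± 0.045, adjusted p = 3.1e-05), Rpn1 (0.26 ± 0.041), Spcs3 (0.23 ± 0.052), Ssr2 (0.22 ± 0.047), Spcs2 (0.22 ± 0.052) and Ssr3 (0.22 ± 0.039), followed by Tram1, Ddost, Ostc, Magt1 and Sec61a1 with differences of 0.12 to 0.19. Of these, the call of Tram1 ended without replicate 2 of control melanoma with TG (log2 0.16), of Ddost without replicate 2 of control melanoma with vehicle, replicate 1 of KO melanoma with vehicle or replicate 1 of KO melanoma with TG (log2 0.15 to 0.17), of Ostc without replicate 1 of control melanoma with vehicle, replicate 2 of control melanoma with TG, replicate 2 of KO melanoma with vehicle or replicate 2 of KO melanoma with TG (log2 0.14 to 0.17), of Magt1 without replicate 1 of control melanoma with vehicle or replicate 2 of KO melanoma with TG (log2 0.14) and of Sec61a1 without replicate 1 of control melanoma with vehicle, replicate 1 of control melanoma with TG, replicate 1 of KO melanoma with vehicle or either replicate of KO melanoma with TG (log2 0.11 to 0.13). With DESeq2 3 of the 11 calls ended. The differences are on the log2 scale and small beside the TG effect: for Rpn1, 0.99 ± 0.029 in the KO and 0.73 ± 0.029 in the control. A larger effect was not always a higher level with TG. Rpn1 averaged 1394 CPM in the KO with TG, against 1430 CPM in the control, and 704 against 863 CPM with vehicle. Sec61a1 averaged 1850 against 1985 CPM with TG and 605 against 706 CPM with vehicle. Rpn2, Spcs3, Spcs2, Ssr3, Ostc and Magt1 were called higher in the KO with TG. Hspa5 also had the larger TG effect in the KO (0.17 ± 0.029), and whether this has a part in the difference was not tested.

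In control T cells the same question was asked of each state. TG raised 30 of the 36 genes in activated T cells, lowered 3 and left 3 not called, with a median log2 change of 0.37 (32.6% higher and 32.4% lower among the 13432 genes tested). In resting T cells 25 rose, 4 fell and 7 were not called, with a median of 0.26 (34.1% higher and 35.2% lower). Hspa5 rose by 1.08 ± 0.032 in activated and 1.50 ± 0.033 in resting T cells. The TG and vehicle libraries did not overlap for 36 of the 36 genes in activated cells, uncalled genes included, and for 32 in resting cells. Over the 4 TG comparisons in melanoma and T cells, 23 of the 36 genes rose in all 4, 0 fell in all 4, and Dad1, Rpn2 and Sec61a2 were called in opposite directions in at least 2 of them. Of the 11195 genes tested in all 4, 13.5% rose in all 4, 13.8% fell in all 4 and 23.8% were called in opposite directions. With TG the 8 T cell markers summed to 5671 to 5816 CPM in activated cells, against 3810 to 3813 CPM with vehicle, and to 9077 to 9165 CPM in resting cells, against 7432 to 7546 CPM with vehicle, and 10 activation markers summed to 24603 to 24684 CPM, against 37058 to 37873 CPM, in activated cells and to 8860 to 8886 CPM, against 14686 to 15225 CPM, in resting cells. None of these markers was at 0 in every library of a group. The 5 plasma cell markers summed to 10.0 to 10.4 CPM with TG, against 29.4 to 31.8 CPM with vehicle in activated cells, and to 74.0 to 74.3 CPM with TG, against 144 to 152 CPM with vehicle in resting cells. Ighm fell in both states, and 1 to 2 of the 5 markers were at 0 in each group. The 5 macrophage markers summed to 2.39 to 2.55 CPM with TG, against 2.95 to 3.06 CPM with vehicle in activated cells, and to 4.94 to 4.996 CPM with TG, against 18.3 to 18.4 CPM with vehicle in resting cells. The 4 B cell markers, with 2 to 3 at 0 in each group, summed to 0.532 to 0.797 CPM with TG, against 1.50 to 1.78 CPM with vehicle in activated cells, and to 1.38 to 1.67 CPM with TG, against 4.34 to 5.48 CPM with vehicle in resting cells. The part of all these markers in the results was not tested.

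All 6 signal recognition genes rose in activated T cells and 4 of the 6 in resting T cells, where Srp14 (-0.01 ± 0.053) and Srp72 (0.08 ± 0.036) were not called. Srprb had 97.3 and 95.2 CPM in activated T cells with TG, against 58.6 and 55.0 CPM with vehicle (0.76 ± 0.054, adjusted p = 1.1e-18). Srprb had 59.6 and 59.7 CPM in resting cells with TG, against 27.4 and 25.3 CPM with vehicle (1.17 ± 0.071). Srprb changed most of the 6 in both states. Srp9 had 56.0 and 52.1 CPM with TG, against 37.3 and 39.7 CPM with vehicle in activated cells (0.49 ± 0.067). Srp9 had 56.6 and 59.8 CPM in resting cells with TG, against 36.6 and 35.5 CPM with vehicle (0.69 ± 0.070). Both genes were thus raised in both states, with no overlap of libraries. Srp19 had 99.6 and 99.1 CPM with TG, against 71.2 and 74.1 CPM with vehicle in activated cells (0.45 ± 0.050). Srp19 had 70.3 and 72.5 CPM in resting cells with TG, against 56.0 and 56.1 CPM with vehicle (0.35 ± 0.058). Srp68 rose by 0.42 ± 0.040 in activated and 0.14 ± 0.041 in resting cells, and Srp72 and Srp14 by 0.20 ± 0.036 and 0.28 ± 0.048 in activated cells.

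Among the translocon genes, Sec61a1 had 879 and 852 CPM in activated T cells with TG, against 504 and 508 CPM with vehicle (0.77 ± 0.034, adjusted p = 2.1e-27). Sec61a1 had 796 and 817 CPM in resting cells with TG, against 332 and 323 CPM with vehicle (1.30 ± 0.036). In both states the TG libraries of Sec61a1 lay above the vehicle libraries. Sec61a2 had 18.3 and 19.2 CPM with TG, against 25.6 and 25.8 CPM with vehicle in activated cells (-0.45 ± 0.099, adjusted p = 9.2e-05). Sec61a2 had 21.1 and 17.04 CPM in resting cells with TG, against 13.8 and 13.5 CPM with vehicle (0.49 ± 0.12, adjusted p = 3.2e-04). It fell in the activated state and rose in the resting state; 18.2% of its 50-base stretches are shared, mostly with Nudt5, which overlaps it on the opposite strand, and whether strand was used in counting is not given in the sources used here. Tram1 had 320.1 and 315 CPM with TG, against 168 and 174 CPM with vehicle in activated cells (0.89 ± 0.039). Tram1 had 332 and 335 CPM in resting cells with TG, against 231 and 239.7 CPM with vehicle (0.50 ± 0.039). Tram1 rose in both states. Tram2 had 5.11 and 4.82 CPM with TG, against 5.71 and 5.83 CPM with vehicle in activated cells, which was not called (-0.22 ± 0.17, adjusted p = 0.27). Tram2 had 9.55 and 10.6 CPM in resting cells with TG, against 18.3 and 16.4 CPM with vehicle, where it fell (-0.79 ± 0.12). Sec63 had 219.9 and 228 CPM with TG, against 123 and 119 CPM with vehicle in resting cells (0.88 ± 0.042), and rose by 0.63 ± 0.039 in activated cells. Sec61b rose by 0.40 ± 0.053 in activated and 0.30 ± 0.058 in resting cells, and Sec62 by 0.30 ± 0.045 and 0.30 ± 0.048. Sec61g, at 1.45 and 2.14 CPM with TG, against 1.17 and 0.757 CPM with vehicle in activated cells, was called there (0.87 ± 0.35, adjusted p = 0.026) but not by DESeq2, without the filter on low counts, or without replicate 2 of the activated vehicle group or replicate 2 of the activated TG group (log2 0.56 to 0.63), and was not called in resting cells (0.20 ± 0.48).

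The 4 TRAP genes rose in both T cell states. Ssr3 had 728 and 739 CPM in activated T cells with TG, against 472 and 493 CPM with vehicle (0.60 ± 0.035, adjusted p = 2.1e-22). Ssr3 had 532 and 541 CPM in resting cells with TG, against 353 and 336 CPM with vehicle (0.64 ± 0.036). Ssr3 changed most of the 4 in each state. Ssr2 had 301 and 309 CPM with TG, against 215 and 211 CPM with vehicle in activated cells (0.51 ± 0.039). Ssr2 had 185 and 186 CPM in resting cells with TG, against 124 and 116 CPM with vehicle (0.63 ± 0.044). Ssr2 was the next in order. Ssr4 had 157 and 159 CPM with TG, against 122 and 124 CPM with vehicle in activated cells (0.36 ± 0.043). Ssr4 had 130.2 and 138 CPM in resting cells with TG, against 120.1 and 112 CPM with vehicle (0.21 ± 0.046). Ssr1 again changed least and rose by 0.12 ± 0.036 in activated cells, a call that ended without the filter on low counts or without either replicate of the resting TG group or replicate 1 of the activated vehicle group (log2 0.07 to 0.09), and by 0.17 ± 0.038 in resting cells.

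Signal peptidase genes rose in 5 of 5 cases in activated and 4 of 5 in resting T cells. Spcs2 had 341 and 340.0 CPM in activated cells with TG, against 214 and 219.6 CPM with vehicle (0.65 ± 0.037, adjusted p = 8.4e-23). Spcs2 had 281 and 286 CPM in resting cells with TG, against 225 and 220.2 CPM with vehicle (0.35 ± 0.038). The TG libraries of Spcs2 were above those with vehicle in both states. Spcs3 had 413 and 403 CPM with TG, against 306 and 319 CPM with vehicle in activated cells (0.38 ± 0.036). Spcs3 had 362 and 374 CPM in resting cells with TG, against 233 and 231 CPM with vehicle (0.67 ± 0.037). Spcs2 changed more in the activated state and Spcs3 more in the resting state. Sec11a had 128 and 127 CPM with TG, against 93.3 and 99.5 CPM with vehicle in activated cells (0.40 ± 0.047). Sec11a had 109.7 and 113 CPM in resting cells with TG, against 98.6 and 97.3 CPM with vehicle (0.18 ± 0.049). Sec11a rose in both states. Sec11c had 113 and 109 CPM with TG, against 89.0 and 87.2 CPM with vehicle in activated cells (0.33 ± 0.046). Sec11c had 127 and 125 CPM in resting cells with TG, against 113 and 113 CPM with vehicle (0.16 ± 0.045). Spcs1 was 0.12 ± 0.049 in activated cells, a call that ended with DESeq2 and without either replicate of the resting TG group or either replicate of the activated vehicle group (log2 0.08 to 0.12), and was not called in resting cells (0.03 ± 0.053).

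Of the 10 oligosaccharyltransferase genes 7 rose and 1 fell in activated T cells, and 6 rose and 2 fell in resting T cells. Ostc (chr3:130695912-130709444, minus strand) changed most in both states, with 299 and 295 CPM in activated cells with TG, against 142 and 159 CPM with vehicle (0.99 ± 0.042, adjusted p = 2.0e-28). Ostc had 253 and 257 CPM in resting cells with TG, against 103 and 99.7 CPM with vehicle (1.33 ± 0.046). It had the largest rise of all 36 genes in each state. Stt3a had 748 and 777 CPM with TG, against 521 and 534 CPM with vehicle in activated cells (0.53 ± 0.034). Stt3a had 543 and 550.4 CPM in resting cells with TG, against 306 and 304 CPM with vehicle (0.84 ± 0.036). Stt3a came next among these subunits in resting cells. Stt3b had 306 and 302 CPM with TG, against 283 and 286 CPM with vehicle in activated cells (0.09 ± 0.037). Stt3b had 315 and 325 CPM in resting cells with TG, against 279.6 and 267 CPM with vehicle (0.23 ± 0.038). The Stt3b call in activated cells ended with DESeq2 and without either replicate of the resting TG group or either replicate of the activated vehicle group (log2 0.05 to 0.10). As in melanoma, the log2 change of Stt3a was larger than that of Stt3b in each state. Krtcap2 had 132 and 127 CPM with TG, against 85.5 and 83.6 CPM with vehicle in activated cells (0.61 ± 0.047), whereas in resting cells the libraries overlapped, at 124 and 132 CPM with TG, against 126 and 125 CPM with vehicle (0.02 ± 0.047, adjusted p = 0.68).

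Magt1 had 269 and 274 CPM in activated T cells with TG, against 211 and 218 CPM with vehicle (0.35 ± 0.038). Magt1 had 209.8 and 202 CPM in resting cells with TG, against 145 and 146 CPM with vehicle (0.50 ± 0.041). Tusc3 had 41.1 and 40.2 CPM with TG, against 42.5 and 45.2 CPM with vehicle in activated cells (-0.11 ± 0.067, not called). Tusc3 had 26.5 and 27.1 CPM in resting cells with TG, against 37.0 and 32.6 CPM with vehicle, where it fell (-0.38 ± 0.080, adjusted p = 3.1e-05). The shared subunits were mixed: Ddost rose in both states (0.34 ± 0.037 and 0.15 ± 0.039 in activated and resting cells), and Rpn1 rose in resting (0.42 ± 0.038) but was not called in activated cells (0.07 ± 0.035). Rpn2 fell in resting cells (-0.14 ± 0.036), a call that ended without replicate 1 of the resting TG group (log2 -0.09). In activated cells it was 0.10 ± 0.035, a call that ended with DESeq2 and without either replicate of the resting TG group, replicate 1 of the activated vehicle group or replicate 1 of the activated TG group (log2 0.05 to 0.09). Dad1 fell in activated cells (-0.24 ± 0.046) and was not called in resting cells (-0.02 ± 0.051).

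Trimming genes moved in opposite directions in T cells. Mogs (chr6:83115496-83118898, plus strand) had 116 and 115 CPM in activated T cells with TG, against 234 and 219 CPM with vehicle (-0.98 ± 0.042, adjusted p = 6.1e-28). Mogs had 70.0 and 66.6 CPM in resting cells with TG, against 91.5 and 94.7 CPM with vehicle (-0.44 ± 0.052, adjusted p = 5.2e-11). It was the gene of the 36 that fell most in activated cells. Prkcsh had 399 and 397 CPM with TG, against 225 and 229 CPM with vehicle in activated cells (0.81 ± 0.038). Prkcsh had 294 and 290.2 CPM in resting cells with TG, against 174 and 167 CPM with vehicle (0.78 ± 0.041). Ganab had 478 and 457 CPM with TG, against 406 and 414 CPM with vehicle in activated cells (0.19 ± 0.036), and was not called in resting cells (0.07 ± 0.037).

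**Figure D3:**
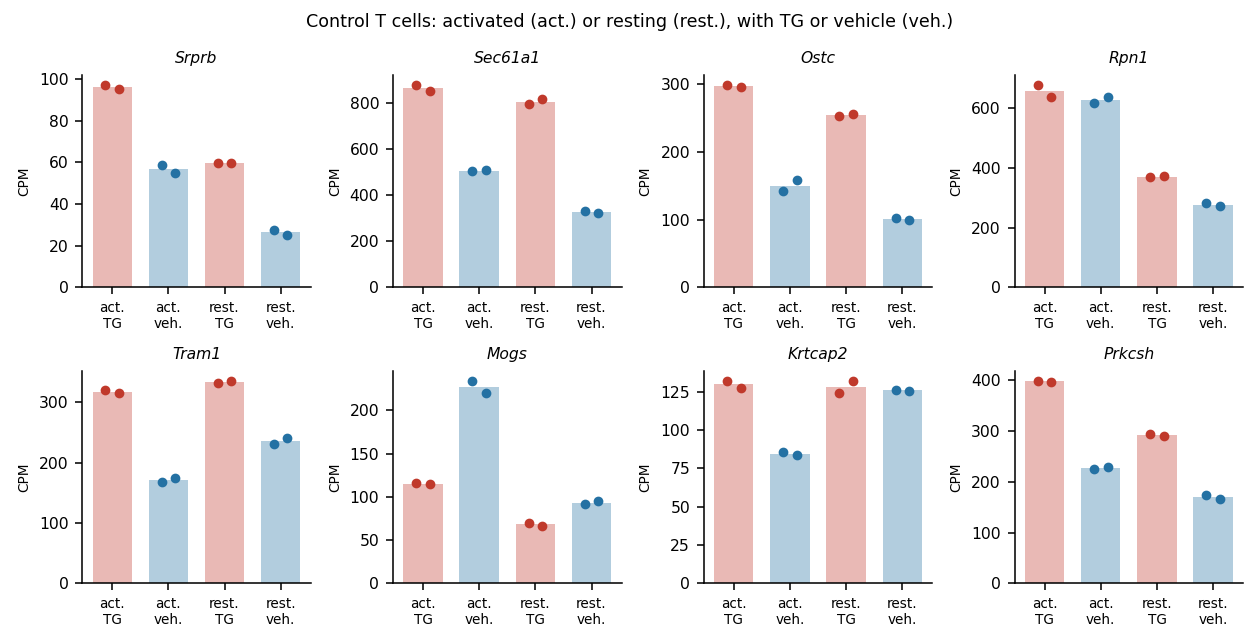
CPM (vertical axes, starting at 0) of 8 of the genes in each control T cell library (points) with the group mean (bars), activated left of resting and TG (red) left of vehicle (blue). Mogs is lower with TG in both states, the other 7 are higher with TG in activated cells except Rpn1, which was not called, and the resting libraries of Krtcap2 overlap.

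The TG effect differed between activated and resting T cells, by an interaction test, for 26 of the 36 genes: it was higher in activated cells for 14 and lower for 12 (26.7% and 25.2% of all genes tested, 51.9% in either direction; median difference 0.06). Here and below, higher and lower refer to the signed log2 change, so for a gene that fell a lower effect is a larger fall. The effect was lower in activated cells for Sec61a2 (-0.94 ± 0.15, adjusted p = 1.2e-06), Sec61a1 (-0.53 ± 0.049) and Mogs (-0.53 ± 0.067), and higher for Krtcap2 (0.59 ± 0.067, adjusted p = 4.5e-11) and Tram2 (0.58 ± 0.21). Mogs thus fell more in activated cells, whereas Tram2 fell in resting cells and was not called in activated cells. Srprb (-0.42 ± 0.090), Rpn1 (-0.35 ± 0.051), Ostc (-0.34 ± 0.062) and Stt3a (-0.31 ± 0.049) also had the lower effect in activated cells, and Tram1 (0.39 ± 0.055), Spcs2 (0.30 ± 0.053) and Rpn2 (0.23 ± 0.050) the higher one. The call of Tram2 ended with DESeq2, without the filter on low counts and without replicate 1 of the resting vehicle group, replicate 1 of the resting TG group, replicate 1 of the activated vehicle group or replicate 1 of the activated TG group (log2 0.44 to 0.56). The 14 genes with the higher effect became 7 with DESeq2, 6 without a filter on low counts, 8 without replicate 1 of the resting vehicle, replicate 1 of the activated vehicle or replicate 2 of the resting TG group, and 6 without replicate 1 of the resting TG group.

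Activation by anti-CD3 itself, with vehicle, raised 23 of the 36 genes and lowered 5, with a median log2 change of 0.35 (35.3% higher and 39.1% lower among all genes). Mogs had 234 and 219 CPM in activated T cells, against 91.5 and 94.7 CPM in resting T cells (1.29 ± 0.044, adjusted p = 4.5e-33), and Rpn1 had 616 and 638 CPM in activated, against 282 and 273 CPM in resting cells (1.18 ± 0.037). Srprb had 58.6 and 55.0 CPM in activated, against 27.4 and 25.3 CPM in resting cells (1.11 ± 0.069). Each of these 3 more than doubled. Of the signal recognition genes Srp19 also rose, with 71.2 and 74.1 CPM in activated, against 56.0 and 56.1 CPM in resting cells (0.37 ± 0.056), and Srp68 fell, with 152 and 156 against 168 and 171 CPM (-0.14 ± 0.041), a call that ended with DESeq2 and without either replicate of the resting TG group or replicate 1 of the activated vehicle group (log2 -0.11 to -0.08). Srp9, Srp14 and Srp72 were not called, with log2 changes of 0.05 to 0.10.

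Of the translocon genes 5 rose and 2 fell on activation. Tram2 had 5.71 and 5.83 CPM in activated, against 18.3 and 16.4 CPM in resting cells (-1.59 ± 0.13, adjusted p = 2.8e-16), and Tram1 had 168 and 174 against 231 and 239.7 CPM (-0.46 ± 0.040), so both Tram genes fell. Sec61a2 had 25.6 and 25.8 CPM in activated, against 13.8 and 13.5 CPM in resting cells (0.91 ± 0.11), and Sec61a1 had 504 and 508 against 332 and 323 CPM (0.63 ± 0.036). Both pore paralogs rose, as did Sec63 (0.54 ± 0.042), Sec61b (0.21 ± 0.057) and Sec62 (0.18 ± 0.048). The call of Sec61b ended without replicate 1 of the activated vehicle group (log2 0.14). Sec61g was not called (0.43 ± 0.44).

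The TRAP subunits Ssr2, Ssr1 and Ssr3 rose on activation and Ssr4 was not called (0.08 ± 0.046). Ssr2 had 215 and 211 CPM in activated, against 124 and 116 CPM in resting cells (0.83 ± 0.043), Ssr1 had 409 and 425 against 266 and 251 CPM (0.69 ± 0.037), and Ssr3 had 472 and 493 against 353 and 336 CPM (0.49 ± 0.036). Signal peptidase genes were mixed: Spcs3 had 306 and 319 CPM in activated, against 233 and 231 CPM in resting cells (0.43 ± 0.037), Spcs1 had 92.5 and 92.4 against 82.2 and 83.5 CPM (0.16 ± 0.051), and Sec11c fell, with 89.0 and 87.2 against 113 and 113 CPM (-0.36 ± 0.047). Spcs2 (-0.04 ± 0.038) and Sec11a (-0.03 ± 0.049) were not called.

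Of the oligosaccharyltransferase genes 8 rose on activation, Krtcap2 fell and Stt3b was not called (0.06 ± 0.037). Stt3a had 521 and 534 CPM in activated, against 306 and 304 CPM in resting cells (0.79 ± 0.035), and Krtcap2 had 85.5 and 83.6 against 126 and 125 CPM (-0.57 ± 0.048, adjusted p = 5.6e-16). Rises of 0.32 to 0.56 were measured for Magt1, Ostc, Rpn2, Dad1, Ddost and Tusc3. Of the trimming genes besides Mogs, Prkcsh had 225 and 229 CPM in activated, against 174 and 167 CPM in resting cells (0.41 ± 0.041), and Ganab had 406 and 414 against 380.3 and 364 CPM (0.14 ± 0.037). In activated cells the 8 T cell markers summed to 3809.9 to 3813 CPM, against 7432 to 7546 CPM in resting cells, and 10 activation markers summed to 37058 to 37873 CPM, against 14686 to 15225 CPM. The 5 plasma cell markers summed to 29.4 to 31.8 CPM in activated cells, against 144 to 152 CPM in resting cells, with 2 of the 5 at 0 in each group. The 5 macrophage markers summed to 2.95 to 3.06 CPM in activated cells, against 18.3 to 18.4 CPM in resting cells, with 1 of the 5 at 0 in each group. The 4 B cell markers summed to 1.50 to 1.78 CPM in activated cells, against 4.34 to 5.48 CPM in resting cells. The part of these markers in the results was not tested.

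Under TG activation raised 29 of the 36 genes and lowered 2, with a median of 0.26 (32% higher and 31.9% lower among all genes). Tram2 (-1.02 ± 0.16) and Sec11c (-0.18 ± 0.045) fell. Besides Sec61g (1.10 ± 0.38, few reads, a call that ended without replicate 1 of the resting TG group or replicate 2 of the activated TG group (log2 0.79 to 1.07)) the largest rises were in Rpn1 (0.83 ± 0.036), Mogs (0.75 ± 0.050), Ssr2 (0.72 ± 0.040), Srprb (0.69 ± 0.055) and Ssr1 (0.64 ± 0.037). For Mogs this gave 116 and 115 CPM in activated cells with TG, against 70.0 and 66.6 CPM in resting cells with TG.

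Targeting of Atp2a2, which encodes a SERCA pump of the kind that TG blocks, was examined in activated T cells. In activated Atp2a2 KO cells 11 of the 36 genes were higher than in activated control cells and 3 were lower, with a median log2 difference of 0.06 (17.5% higher and 19.6% lower among all genes). Sec11c had 119.6 and 127 CPM in the KO, against 89.0 and 87.2 CPM in the control (0.48 ± 0.045, adjusted p = 3.1e-13), and Prkcsh had 269 and 292 against 225 and 229 CPM (0.30 ± 0.039). Mogs was the lowest, with 170.4 and 176 CPM in the KO, against 234 and 219 CPM in the control (-0.39 ± 0.040, adjusted p = 4.1e-12). Smaller differences were called for Tram1 (0.21 ± 0.040), Ssr4 (0.21 ± 0.043), Spcs3 (0.19 ± 0.036), Srp14 (0.19 ± 0.048) and, below the control, Tusc3 (-0.18 ± 0.066) and Ssr1 (-0.10 ± 0.036). This comparison and that of TG in activated cells share their vehicle control libraries; the log2 changes with TG were 0.33 ± 0.046 for Sec11c, 0.81 ± 0.038 for Prkcsh and -0.98 ± 0.042 for Mogs. The count of 11 was 7 without replicate 1 of the activated vehicle control and 6 without replicate 2 of the activated KO, and the count of 3 was 1 without replicate 2 of the activated vehicle control, either replicate of the activated TG group or replicate 1 of the activated KO. It was 7 and 1 with DESeq2, and 6 genes were higher without a filter on low counts, against 17 with a filter of 5 CPM in 2 libraries. The call of Srp14 ended without replicate 2 of the activated Atp2a2 KO (log2 0.13). The log2 difference of Hspa5 was 0.28 ± 0.032 (adjusted p = 2.5e-10). The 8 T cell markers were all higher in the activated KO, summing to 4554 to 4589 CPM, against 3809.9 to 3813 CPM in the activated control, and their part in these differences was not tested.

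Against resting control cells the libraries labelled resting Atp2a2 KO had 28 of the 36 genes higher and 4 lower, with a median of 0.39 (33.7% higher and 35.9% lower among all genes). The largest differences were in Tram2 (-1.63 ± 0.15), Srprb (1.22 ± 0.073), Rpn1 (1.17 ± 0.037), Mogs (0.99 ± 0.046), Ssr2 (0.94 ± 0.044) and Sec61a2 (0.86 ± 0.12), and Krtcap2 (-0.41 ± 0.050), Tram1 (-0.28 ± 0.041) and Srp68 (-0.15 ± 0.043) were lower too. Mogs had 184 and 185 CPM in the libraries labelled resting Atp2a2 KO, against 91.5 and 94.7 CPM in resting control cells. The 10 activation markers summed to 37443 to 37512 CPM there, against 14686 to 15225 CPM in resting control cells, and the 5 plasma cell markers to 38.0 to 40.3 CPM, against 144 to 152 CPM. Given the label, this difference cannot be told apart from one of activation state. Between the activated Atp2a2 KO and the libraries labelled resting Atp2a2 KO, a comparison added after the data were examined, edgeR called 0 genes of the 36 higher and 0 lower (0.469% and 0.119% of all genes), with 4 of the 36 at an unadjusted p below 0.05, and DESeq2 called 0 higher and 0 lower. The largest absolute log2 difference was 0.61, in Sec61g.

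Across cell types, TG effects were compared in all 20 libraries. In control melanoma the TG effect was higher than in activated T cells for 27 of the 36 genes and lower for 3, with a median difference of 0.40 log2 units (21.6% higher, 21.8% lower and 43.4% either among the 14824 genes tested). Against resting T cells it was higher for 28 and lower for 2, with a median of 0.37 (23.6% higher, 23.8% lower and 47.4% either); the 2 became 1 without replicate 2 of the resting TG group or with DESeq2, and 4 when only the compared groups were fitted. These comparisons share the melanoma libraries. Besides Sec61g (1.99 ± 0.53 and 2.66 ± 0.64, few reads) the largest differences against activated T cells were in Tram2 (-1.06 ± 0.20), Mogs (0.89 ± 0.057), Sec11c (0.83 ± 0.068), Stt3a (0.80 ± 0.046) and Ssr1 (0.75 ± 0.048). Against resting T cells they were in Krtcap2 (1.06 ± 0.064), Sec11c (1.01 ± 0.067), Ssr4 (0.86 ± 0.069), Sec61a2 (-0.76 ± 0.13) and Srp72 (0.76 ± 0.053). The signed effect was lower in melanoma for Tram1 (-0.21 ± 0.054), Tram2 and Tusc3 (-0.34 ± 0.10) against activated cells, and for Sec61a2 and Tram2 (-0.48 ± 0.16) against resting cells. The lower value was a smaller rise for Tram1 and a larger fall for Tram2 and Tusc3. Mogs had the higher value in melanoma, where it was not called, and fell in activated T cells. The call of Sec61g against activated cells ended without replicate 1 of the activated vehicle group (log2 1.60). Hspa5 rose more in melanoma too, by 2.23 ± 0.040 log2 units over activated and 1.82 ± 0.040 over resting T cells.

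**Figure D4:**
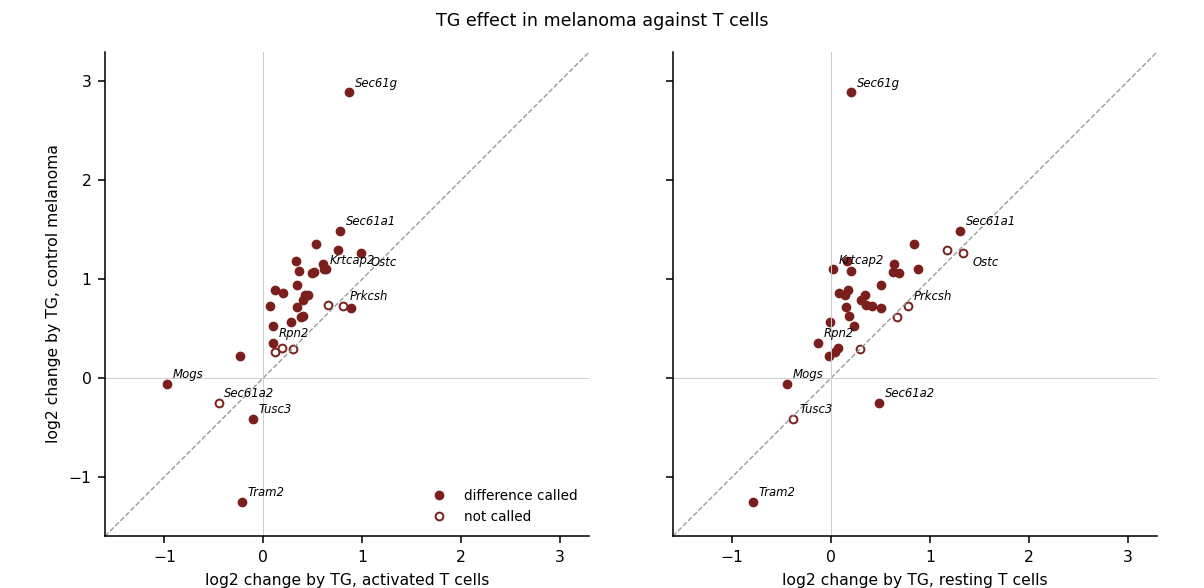
Log2 change by TG in control melanoma (vertical axes) against that in activated (left) and resting (right) control T cells (horizontal axes), 1 point per gene; the dashed line marks equal change and filled points differ by the interaction test. Most points lie above the dashed line, and Tram2 lies below it in both panels.

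Without TG control melanoma and resting control T cells differed in both directions: 15 of the 36 genes were higher in melanoma, 14 lower and 7 not called, with a median of -0.06 (40.8% higher and 43% lower among all genes). Both counts lay near the shares of all genes, so the split does not set the 36 genes apart. The values here and in the next sentences are CPM on the scale of all 20 libraries. Higher in melanoma were Srprb, with 87.9 and 87.7 CPM in melanoma, against 29.2 and 27.0 CPM in resting T cells (1.64 ± 0.061, adjusted p = 4.2e-38), Rpn1, with 803 and 821 against 300.0 and 291 CPM (1.46 ± 0.035), and Mogs, with 249 and 247 against 97.4 and 101 CPM (1.32 ± 0.043). Sec61a2 (48.4 and 48.5 against 14.7 and 14.4 CPM, 1.73 ± 0.090), Tram2 (36.8 and 36.8 against 19.4 and 17.5 CPM, 0.99 ± 0.091), Sec61a1 (669 and 659.7 against 353 and 344 CPM, 0.93 ± 0.033) and Magt1 (331 and 312 against 154 and 156 CPM, 1.05 ± 0.039) were also higher in melanoma. The TRAP genes were split, with Ssr2 (269 and 269 against 132 and 124 CPM, 1.07 ± 0.040) and Ssr3 (690.4 and 664 against 376 and 359 CPM, 0.88 ± 0.034) higher in melanoma and Ssr4 lower (51.9 and 53.1 against 128 and 119 CPM, -1.24 ± 0.050).

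The catalytic and accessory peptidase genes were lower in melanoma: Sec11c had 55.4 and 55.6 CPM in melanoma, against 120.0 and 120.5 CPM in resting T cells (-1.12 ± 0.049), Sec11a had 61.9 and 56.4 against 105 and 104 CPM (-0.82 ± 0.053) and Spcs1 had 60.5 and 56.4 against 87.5 and 89.1 CPM (-0.59 ± 0.054), with Spcs2 and Spcs3 at -0.33 ± 0.038 and -0.26 ± 0.037. Srp72 (240.1 and 223 against 409 and 402 CPM, -0.81 ± 0.038) and Srp14 (61.0 and 65.9 against 89.6 and 97.2 CPM, -0.56 ± 0.054) were lower in melanoma too. So were Dad1 (62.8 and 66.6 against 102 and 96.7 CPM, -0.62 ± 0.052) and Ganab (313 and 316 against 405 and 388 CPM, -0.34 ± 0.036). Not called were Srp9, Srp68, Sec61g, Tram1, Tusc3, Ostc and Prkcsh.

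Levels of different genes were compared per kilobase (kb) of exon. In control melanoma with TG the highest of the 36 was Ssr3 (359.5 ± 3.3 CPM per kb, mean ± SD, n = 2), followed by Ssr2 (302 ± 7.4), Rpn1 (297 ± 5.6) and Sec61a1 (276 ± 2.1), against Rpn1 (179.9 ± 2.8), Ssr3 (162 ± 4.5) and Ssr2 (144 ± 0.20) at the top with vehicle. The levels of Ssr2 and Rpn1 with TG lay within their spread of each other. In resting T cells with vehicle Ddost led (119 ± 4.5), ahead of Krtcap2 (88.1 ± 0.34), Ssr3 (88.0 ± 2.9) and Rpn2 (88.0 ± 0.44), which did not differ from each other beyond their spread. Sec61g was the lowest of the 36 in every group. The next lowest was Tram2, also in every group.

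Paralogs were set against each other as the share of a pair's CPM per kb that the named gene took. Sec61a2 took 3.10% of its pair in control melanoma with TG, against 9.70% with vehicle, 3.09% in activated T cells with TG, against 6.96% with vehicle, and 3.36% in resting T cells with TG, against 5.79% with vehicle. Tram2 took 1.77% with TG, against 6.57% with vehicle in control melanoma, 0.737% against 1.57% in activated and 1.41% against 3.38% in resting T cells. Both minor paralogs thus took the smaller share with TG in all 3 cell states, Sec61a2 also in resting T cells, where its own level rose. Tusc3 took 5.31% with TG, against 12.6% with vehicle in control melanoma, 16.9% against 21.8% in activated and 15.04% against 24.5% in resting T cells. Stt3b took 52.8% with TG, against 66.5% with vehicle in control melanoma, 45.8% against 53.4% in activated and 55.4% against 65.5% in resting T cells. For these 4 pairs the TG and vehicle libraries did not overlap in any of the 3 states. Sec11c was the exception, taking 48.2% with TG, against 38.9% with vehicle in control melanoma, but 37.1% against 38.3% in activated and 43.4% against 43.8% in resting T cells. The TG and vehicle libraries of Sec11c did not overlap in melanoma and overlapped in both T cell states. The shares are a description, with no test.

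**Figure D5:**
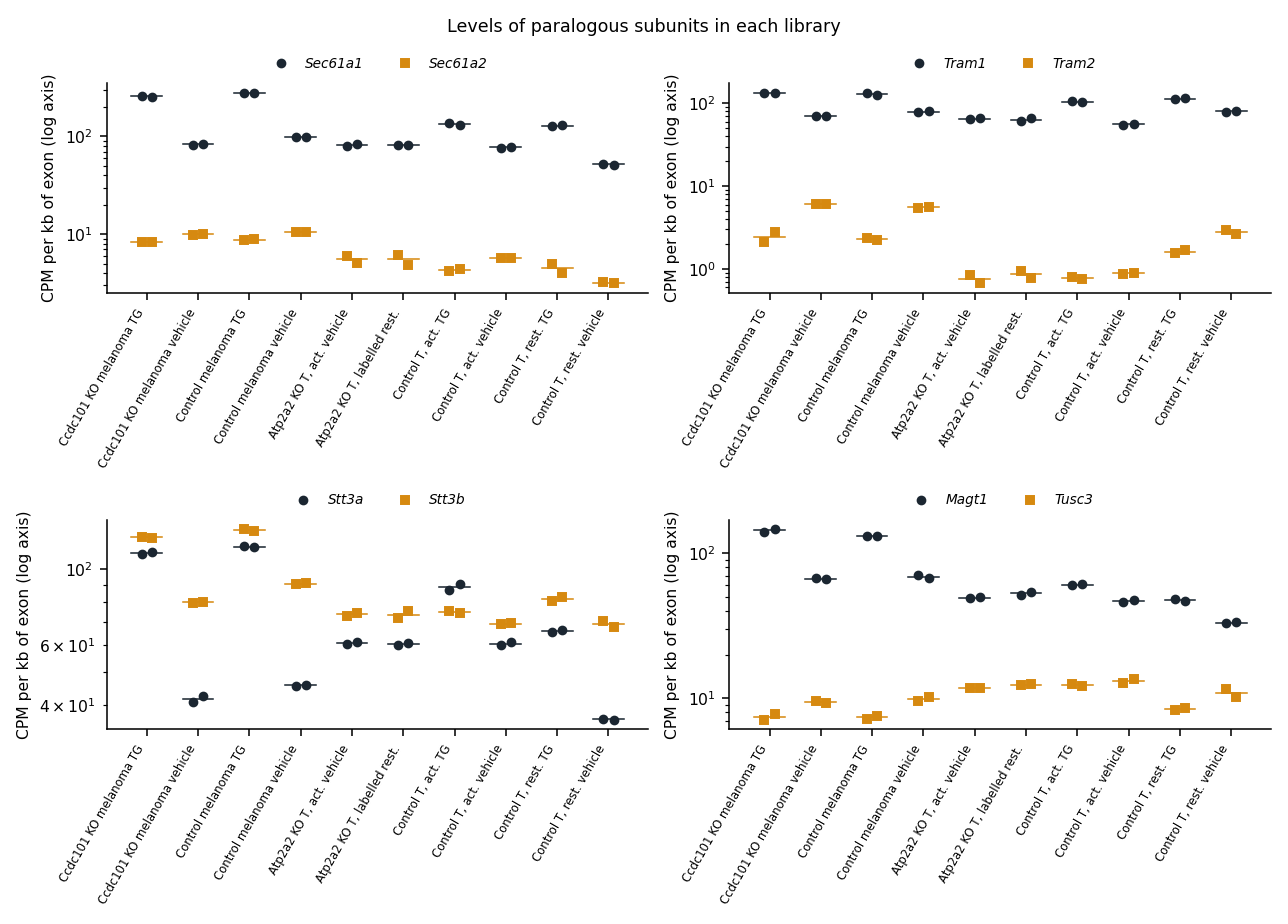
CPM per kb of exon (vertical axes, log scale) of 4 paralog pairs in each library (points, with a line at the group mean) over the 10 groups, TG left of vehicle. Stt3a and Stt3b lie closer together than the other pairs, while Sec61a2, Tram2 and Tusc3 lie well below their partners in every group.

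Genes of neighbouring steps, from lists chosen with the 36, were counted in the same fits. Among all genes tested 35.7% rose and 36.1% fell with TG in control melanoma, 32.6% rose and 32.4% fell in activated T cells, and 34.1% rose and 35.2% fell in resting T cells. Of 12 genes of the glycoprotein folding cycle, which holds and releases trimmed glycoproteins, 11 rose and 0 fell with TG in control melanoma (median 1.16), and 8 rose and 2 fell in activated as in resting T cells (medians 0.21 and 0.28). Of 23 genes that build the lipid-linked glycan donor, 12 rose and 4 fell in control melanoma (median 0.14), 12 rose and 5 fell in activated T cells, and 14 rose and 5 fell in resting T cells (medians 0.18 and 0.37). Of 17 genes for membrane insertion outside Sec61, the EMC and GET complexes, 4 rose and 7 fell in control melanoma (median -0.08) and in activated T cells (-0.12), and 6 rose and 4 fell in resting T cells (0.03). The last list was meant for further subunits and partners of the translocon and the oligosaccharyltransferase. It also held ER chaperones such as Hyou1, Dnajb11 and Hspa5, the last used above as a marker of ER stress. Ostm1, which is not an oligosaccharyltransferase subunit, was listed too. Among its 16 tested genes, 11 rose in each of the 3 states and 3, 3 and 5 fell in control melanoma, activated and resting T cells. Over all genes tested the median log2 change was -0.00082 in control melanoma, 0.008 in activated and 0.0064 in resting T cells.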

How the data were processed

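Gene counts of 20 RNA-seq libraries, 2 for each of 10 groups, were used as deposited. Per the submitters' processing notes the authors named STAR 2.6.0c, HTSeq and the GRCm38 (mm10) build; the annotation release, strand setting and filters are not given in the sources used here. Groups were taken from the labels. Of the 46603 identifiers, 46091 were named with GENCODE M21. Counts were fitted with edgeR 4.0.16 (limma 3.58.1, R 4.3.3) by the robust quasi-likelihood test after filterByExpr and TMM scaling, in 3 fits: the 8 melanoma libraries, the 12 T cell libraries and all 20. P-values were Benjamini-Hochberg adjusted over all tested genes, with a threshold of 0.05. CPM values used TMM-scaled library sizes of the fit concerned, and SE was derived from each gene's log2 change and F statistic. CPM per kb divides by the union of a gene's GENCODE exons. The fits were tested on simulated data in which few genes changed, up and down in balance and none of them at low counts. That simulation does not test the scaling where most genes change, nor calls at low counts such as those of Sec61g.

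The 36 genes, the neighbouring lists and the markers were chosen with earlier results of these data known. Library values were given for up to 3 called genes per role with the largest absolute log2 change in each main comparison, and in the other comparisons the up to 6 called genes with the largest change, any opposite to most, and the paralog pairs; further genes were named after their values were seen. Alternatives were DESeq2 1.42.0, RLE scaling, no filter on low counts, a filter of 5 CPM in 2 libraries, fits of the compared groups only, a replicate block, leaving out each library, and leaving out the libraries labelled resting Atp2a2 KO (in the fit of all 20 libraries an alternative added after the data were examined).

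Depth ran from 9985311 to 17462770 counts per library, which leaves Sec61g, with 4 to 52 counts, the least precise.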

Additional observations from a re-analysis of the deposited data

Results flagged for a closer look

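TG effects that differed between genotypes, states or cell types by the test of the difference itself were met in 4 comparisons. The effect differed for 11 of the 36 genes between Ccdc101 KO and control melanoma (13.1% of all genes tested), for 26 between activated and resting T cells (51.9%), for 30 between control melanoma and resting T cells (47.4%) and for 30 between control melanoma and activated T cells (43.4%).

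Among these, 3 genes were called in opposite directions in the cells compared. For Sec61a2 the difference in log2 effect was -0.94 for activated minus resting T cells and -0.76 for control melanoma minus resting T cells. For Rpn2 the difference was 0.23 for activated minus resting T cells and 0.47 for control melanoma minus resting T cells. The calls of Rpn2 with TG in T cells did not hold throughout. Its rise in activated cells ended with DESeq2 and without single libraries, and its fall in resting cells ended without a library of the resting TG group. For Dad1 the difference was 0.43 for control melanoma minus activated T cells.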

How the results depend on the processing

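The counts of genes called with TG in melanoma (32 higher and 3 lower in each genotype) were the same without any 1 library. With TG in activated T cells 26 to 30 genes were higher and 3 to 4 lower when each library was left out in turn, and in resting T cells 25 to 27 and 3 to 4. The counts in T cells were the same without the libraries labelled resting Atp2a2 KO: 30 and 3 in activated cells, 25 and 4 in resting cells. Without a filter on low counts 5 calls of single genes with TG ended in activated cells and 1 was gained, and with DESeq2 4 ended. In resting cells all 36 genes kept their side of the threshold in both. Without those libraries all 324 values of single genes in the other comparisons with T cells kept their side of the threshold, those of melanoma with T cells in an alternative chosen after seeing the data.

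Counts that moved by over 1.5 times were the following, and the cause was not tested. Between KO and control melanoma with TG the 2 lower genes were 1 with DESeq2, 0 without a filter on low counts, 4 with the filter of 5 CPM and 0 to 2 when each library was left out. The 14 genes with a higher TG effect in activated than in resting T cells were 7 with DESeq2, 6 without a filter and 6 to 14 without 1 library. In activated Atp2a2 KO cells the 11 higher genes were 7 with DESeq2, 6 without a filter, 17 with the filter of 5 CPM and 6 to 13 without 1 library, and the 3 lower genes were 1 with DESeq2 and 1 to 3 without 1 library. The 2 genes with a lower TG effect in control melanoma than in resting T cells were 1 with DESeq2, 4 with only the compared groups fitted and 1 to 3 without 1 library. Tram1, not called between control melanoma and resting T cells with vehicle (-0.02), ran from -0.039 to 0.095 without 1 library and was above 0 without replicate 2 of control melanoma with TG or either replicate of KO melanoma with vehicle. Those left-out libraries are not in the compared groups, so the direction of Tram1 depends on which other libraries are fitted.

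Libraries with the same replicate number did not deviate together with a constant sign (correlations of -0.19 to 0.14 over 6 pairs of melanoma groups and -0.26 to 0.29 over 15 pairs of T cell groups), so the numbers were not taken as pairs. The highest, 0.29, was between activated control and activated Atp2a2 KO T cells with vehicle. In that comparison all 36 genes kept their side of the threshold with a replicate block. With a replicate block 574 values of single genes kept their side of the threshold and 2 did not: Rpn2 between KO and control melanoma with vehicle (-0.08) and the difference in TG effect of Ganab between activated and resting T cells (0.12) were no longer called. With DESeq2 543 kept theirs, with RLE scaling 565 and without a filter 534.

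Depth limits Sec61g most, with 4 to 52 counts per library.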
